A study of Mus musculus with 12 samples.

Results

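MHC class II genes were examined in the small intestine of PPARα-null and wild-type mice that had been fasted for 24 hours or fed. The 7 genes chosen were H2-Aa, H2-Ab1 and H2-Eb1, which encode chains of the classical class II molecules, H2-DMa and H2-DMb1, which encode the subunits of the peptide exchange factor H2-DM, Cd74, which encodes the invariant chain, and Ciita, which encodes the class II transactivator. Every probe set that the probe annotation assigned to one of these symbols was taken, which gave 12 probe sets of the 22690 on the array. Of these, 10 carried 1 symbol only and represented 6 of the 7 genes, among 12394 genes with a probe set of their own. The other 2 carried both H2-DMb1 and its near-identical neighbour H2-DMb2. Signals of this gene pair cannot be told apart on them, and they are called H2-DMb1/H2-DMb2 here.

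Class II molecules are pairs of an α and a β chain that present peptides from endosomes to CD4+ T cells. The invariant chain occupies the groove of a new molecule and guides it to the endosome, where proteases trim the chain and H2-DM exchanges the remaining fragment for other peptides. The transactivator does not bind DNA itself but is recruited to class II promoters by the factors that hold the X and Y boxes, RFX, CREB and NF-Y, and its own production is induced by interferon gamma. In the small intestine class II is carried by B cells, macrophages and dendritic cells and also by the epithelium.

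RNA of the full-length small intestine had been hybridised to Affymetrix MOE430A arrays, with 3 biological replicates in each of 4 groups and 12 arrays in all. The groups were PPARα-null mice fasted for 24 hours, wild-type mice fasted for 24 hours, PPARα-null mice with free access to feed and wild-type mice with free access to feed. All were males of 14 weeks. The series record names AIN93M as the diet, while the study's methods name a standard laboratory chow. PPARα is a nuclear receptor that fatty acids activate, and the study used the null mice to ask which changes during fasting depend on it. PPARα-null mice were 129S4/SvJae and wild-type mice 129S1/SvImJ, so that genotype and substrain cannot be told apart. The sources used here do not say whether mice were pooled for a replicate. Intestines had been flushed with buffer and freed of fat and pancreas before freezing.

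Intensities are those the authors made with GCRMA, on a linear scale, and were taken to log2 for the tests. Between 38.0% and 41.3% of the probe sets of an array exceeded an intensity of 20, the level above which a gene counted as expressed. Fed and fasted arrays appear to have been normalised as separate sets, and the expressed probe sets read lower by a median of 0.32 (log2) in fasted arrays. This common shift of −0.32 was removed from the changes upon fasting, which are therefore given relative to it, and changes "as deposited" are lower by 0.32 each. Feeding state and normalisation set cannot be told apart, and intensities are printed as deposited. Ppara itself read between 10.96 and 13.2 in PPARα-null fasted mice, against 30.8 to 58.7 in wild-type fasted mice, and between 6.84 and 7.5 in PPARα-null fed mice, against 19.9 to 35.9 in wild-type fed mice. One description field of the wild-type fasted samples names knockout mice while their titles and strains say wild-type, and their Ppara levels lay with those of the wild-type fed mice. The sources used here do not say whether its probe set lies within the deleted part of Ppara. Transcripts of exocrine pancreas stood apart in fasted arrays, with a summed intensity over 9 genes of 22809, 600 and 23701 in PPARα-null fasted replicates 1, 2 and 3 and 9814 to 19817 in wild-type fasted mice, against 684 to 1189 in PPARα-null fed mice and 596 to 2055 in wild-type fed mice. PPARα-null fasted replicate 2 was thus the one fasted array with pancreas transcripts at the level of the fed arrays.

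Promoter sequence bears on these genes because the X and Y boxes through which the transactivator acts lie just before their start sites. RefSeq windows of 250 bases before to 50 bases after the start (GRCm38.p6) were matched by symbol for 4 of the 7 genes, H2-Aa, H2-Eb1, H2-DMa and H2-DMb1. The 3 windows with a match are printed 5′ to 3′ on the strand of the gene, with the matches in capitals. H2-DMb1 lies at chr17:34152941-34153240 (+), H2-Eb1 at chr17:34305617-34305916 (+) and H2-Aa at chr17:34287774-34288073 (−).
H2-DMb1: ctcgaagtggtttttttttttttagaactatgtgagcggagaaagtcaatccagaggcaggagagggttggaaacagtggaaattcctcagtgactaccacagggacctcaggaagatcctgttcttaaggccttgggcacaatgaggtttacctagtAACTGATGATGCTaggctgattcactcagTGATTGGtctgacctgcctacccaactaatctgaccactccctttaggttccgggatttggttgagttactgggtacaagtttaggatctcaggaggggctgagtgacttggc
H2-Eb1: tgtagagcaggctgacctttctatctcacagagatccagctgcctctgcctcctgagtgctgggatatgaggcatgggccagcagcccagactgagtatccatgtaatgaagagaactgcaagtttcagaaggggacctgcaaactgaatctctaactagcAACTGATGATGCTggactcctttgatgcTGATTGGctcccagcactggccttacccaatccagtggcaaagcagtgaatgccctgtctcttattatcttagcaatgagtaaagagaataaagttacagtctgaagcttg
H2-Aa: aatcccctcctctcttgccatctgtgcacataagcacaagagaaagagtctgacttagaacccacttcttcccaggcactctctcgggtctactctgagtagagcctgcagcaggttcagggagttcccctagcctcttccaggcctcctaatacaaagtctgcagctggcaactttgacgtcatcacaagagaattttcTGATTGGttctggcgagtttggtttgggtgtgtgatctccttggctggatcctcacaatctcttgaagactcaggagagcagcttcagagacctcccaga
The capitals mark 2 motifs, chosen after the sequences had been seen and searched on both strands. One is AACTGATGATGCT, the longest run of bases that the H2-DMb1 and H2-Eb1 windows share, which lies where class II promoters have the X box. The other is the Y box, TGATTGG, which NF-Y recognises. In H2-DMb1 the shared run lay between 92 and 80 bases before the start and the Y box between 63 and 57 bases before it, with 16 bases between them. In H2-Eb1 there were 15 bases between them. Of these 2 motifs the H2-Aa window held the Y box only, and the 2 windows of H2-DMa held neither. Other forms of the X and Y boxes were not searched for, so a window without a match may still hold one. The marked stretches are letter matches and not measured binding sites. Over all 32851 windows of the table, the shared run was found in 3 (0.00913%), those of H2-DMb1, H2-Eb1 and the zinc carrier Slc39a10, and the Y box in 7.82%. The matches in H2-DMb1 and H2-Eb1 follow from how the run was chosen. Its share therefore does not measure how particular it is to class II promoters. The motifs overlap in none of the printed windows.

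Expression of class II genes was lower after 24 hours of fasting in both genotypes. In PPARα-null mice 8 of the 10 probe sets over the level of 20 were downregulated and none was upregulated, where 23.6% of all 9370 probe sets tested were downregulated and 42.2% changed in either direction. In wild-type mice 9 of 10 were downregulated and none was upregulated, against 7.43% of all probe sets downregulated and 17.5% changed. The threshold for a change, in limma, was a fold above 1.3 together with an unadjusted p below 0.01, for probe sets above an intensity of 20 in fed wild-type animals. Adjusted p-values (Benjamini-Hochberg) cover every probe set tested in the contrast. Fasted arrays lay wholly below the fed arrays on 9 of the 10 in PPARα-null mice, against 33.4% of all probe sets, and on 9 of the 10 in wild-type mice, against 15.8%. As deposited, 10 of 10 were downregulated in PPARα-null and 9 of 10 in wild-type mice, where 43.4% and, in wild-type mice, 31.7% of all probe sets were. The median change of the 10 probe sets was −0.79 (log2) in PPARα-null mice, where that of all probe sets was −0.016, and −0.85 in wild-type mice, where it was 0.031. Fewer class II-bearing cells and less class II RNA per cell cannot be told apart in RNA of whole intestine. The contrasts of fasting in the 2 genotypes share no arrays, but each sets fasted against fed arrays and so carries the same difference of normalisation set.

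**Figure D1:**
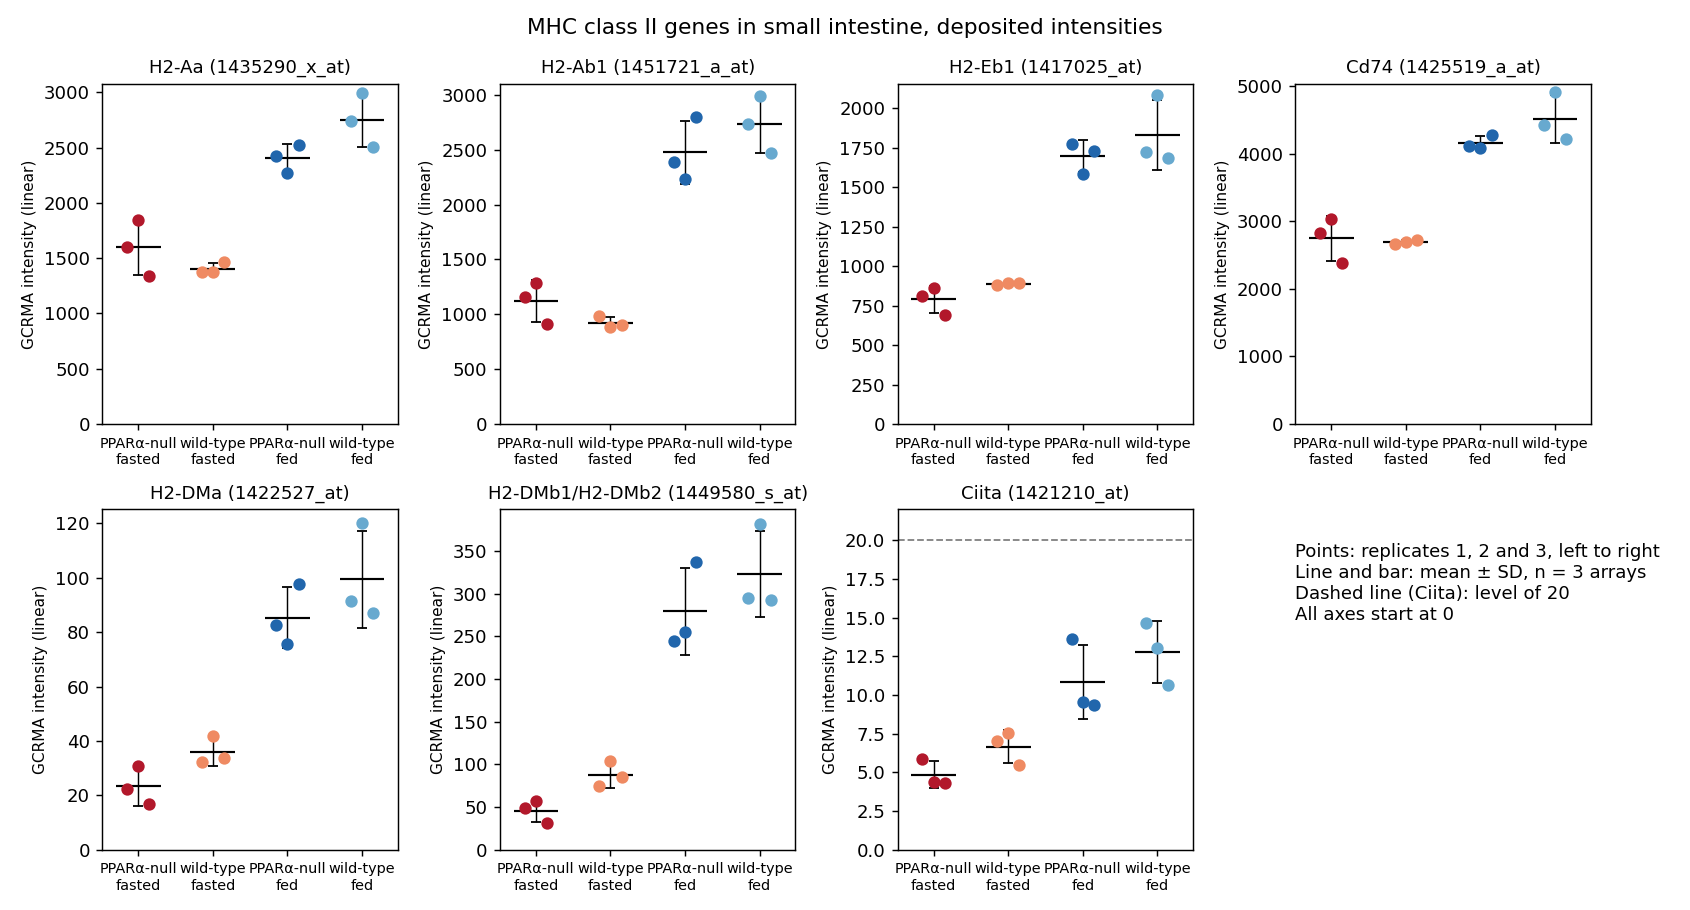
Deposited GCRMA intensities (vertical axes, linear, from 0) of 7 class II probe sets in the 4 groups (horizontal axes). Points are replicates 1 to 3, with the mean ± SD, n = 3. The fasted arrays of both genotypes lay below the fed arrays in every panel, and all Ciita values stayed under the dashed level of 20.

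H2-Ab1, the β chain of the A molecule, gave the largest change among the classical chains. Its probe set 1451721_a_at read 1162, 1288 and 911 in PPARα-null fasted mice, against 2392, 2237 and 2795 in PPARα-null fed mice. In wild-type mice it read 980.2, 885 and 902 after fasting, against 2738, 2994 and 2468 when fed. The fasted and fed arrays of a genotype did not overlap on this probe set. The log2 change was −0.84 (SE 0.13, adjusted p = 1.49e-04) in PPARα-null mice and −1.25 (SE 0.13, adjusted p = 1.18e-04) in wild-type mice. A second H2-Ab1 probe set, 1425477_x_at, changed by −0.72 in PPARα-null mice and −1.08 in wild-type mice, and the third, 1450648_s_at, by −0.51 and −0.63 in the same order of genotypes. All 3 H2-Ab1 probe sets fell in both genotypes, by amounts that differed between probe sets of the gene.

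H2-Aa, the α chain that pairs with H2-Ab1, fell in both genotypes on one probe set and in wild-type mice on the other. On 1452431_s_at it read 563, 602 and 434 in PPARα-null fasted mice, against 1129.6, 1047 and 1229 in PPARα-null fed mice. It read 537, 509.5 and 534 in wild-type fasted mice, against 1354, 1331 and 1216 in wild-type fed mice. The changes were −0.79 (SE 0.12, adjusted p = 9.64e-05) in PPARα-null mice and −0.99 (SE 0.12, adjusted p = 1.92e-04) in wild-type mice. On 1435290_x_at the intensities were 1601, 1848 and 1342 in PPARα-null fasted mice and 1374, 1378 and 1462 in wild-type fasted mice. The fed arrays of this probe set read 2421, 2273 and 2519.9 in PPARα-null mice and 2742, 2996 and 2506 in wild-type mice. Here the change in wild-type mice was −0.65 (SE 0.11, adjusted p = 0.00179). That in PPARα-null mice, −0.29 (SE 0.11, adjusted p = 0.0452), reached neither the fold of 1.3 nor the unadjusted p (0.0248 in limma). Relative to the common shift the fasted and fed PPARα-null arrays overlapped on this probe set. As deposited that change was −0.60, which passed.

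H2-Eb1, the β chain of the E molecule, fell by similar amounts in both genotypes. Its probe set 1417025_at read 813, 862 and 692 in PPARα-null fasted mice, against 1773, 1579.96 and 1731 in PPARα-null fed mice. It read 882, 893 and 892 in wild-type fasted mice, against 1721, 2085 and 1681 in wild-type fed mice. The changes were −0.79 (SE 0.11, adjusted p = 4.41e-05) and, in wild-type mice, −0.72 (SE 0.11, adjusted p = 7.53e-04), and no fasted array reached a fed one. H2-Ea, which encodes the α chain of the E molecule, gave a signal near the level of 20, 31.7 ± 3.89 in PPARα-null fasted mice and 21.5 ± 1.90 in wild-type fasted mice, against 25.9 ± 2.58 in PPARα-null fed mice and 27.7 ± 5.61 in wild-type fed mice (SD, n = 3). Its change in PPARα-null mice was 0.60 (adjusted p = 0.00342) relative to the shift and, as deposited, 0.29, which did not pass, and in wild-type mice it was −0.03 (adjusted p = 0.883). H2-Ea was not one of the 7 genes, and whether its signal stood above background was not tested.

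The subunits of H2-DM gave the largest changes among the 7 genes in PPARα-null mice, and a probe set of the β subunit gave the largest in wild-type mice. H2-DMa, the α subunit (1422527_at), read 22.2, 30.8 and 16.8 in PPARα-null fasted mice, against 82.6, 75.8 and 97.7 in PPARα-null fed mice. It read 32.4, 41.7 and 33.8 in wild-type fasted mice, against 91.5, 119.9 and 87.1 in wild-type fed mice. H2-DMa thus fell by 1.60 (SE 0.20, adjusted p = 2.44e-05) in PPARα-null mice and by 1.15 (SE 0.20, adjusted p = 0.00175) in wild-type mice on the log2 scale, with no overlap between fasted and fed arrays. For the β subunit, probe set 1449580_s_at of H2-DMb1/H2-DMb2 read 49.2, 56.9 and 31.8 in PPARα-null fasted mice, against 245, 255 and 337 in PPARα-null fed mice. It read 74.2, 104 and 84.8 in wild-type fasted mice, against 295, 381 and 293 in wild-type fed mice. It fell by 2.31 (SE 0.21, adjusted p = 1.77e-06) in PPARα-null mice, a fold of 4.98, and by 1.57 (SE 0.21, adjusted p = 3.88e-04) in wild-type mice, a fold of 2.96. In PPARα-null mice 0.544% of all probe sets tested had a lower change than this one, and in wild-type mice 0.256% had.

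The second H2-DMb1/H2-DMb2 probe set, 1418638_at, was dimmer and differed between the genotypes in its call. It read 11.99, 16.4 and 10.1 in PPARα-null fasted mice, against 28.4, 26.1 and 45.5 in PPARα-null fed mice. In wild-type mice it read 21.2, 24.4 and 23.5 after fasting, against 32.8, 40.1 and 28.9 when fed. The change was −1.04 (SE 0.21, adjusted p = 0.00108) in PPARα-null mice, whose fasted arrays all lay under the level of 20, and with a pseudocount of 16 it was −0.50. In wild-type mice it was −0.23 (SE 0.21, adjusted p = 0.455) with a 95% interval of −0.69 to 0.22, and this was the one class II probe set over the level of 20 that did not pass there. Probe set 1419744_at, which carries H2-DMb2 alone, read 18.5 ± 1.73 in PPARα-null fasted mice and 16.3 ± 3.39 in wild-type fasted mice, against 21.2 ± 2.88 in PPARα-null fed mice and 18.8 ± 1.004 in wild-type fed mice (SD, n = 3), around the level of 20 in all groups.

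Cd74, the invariant chain, fell in wild-type mice and changed by less than the threshold in PPARα-null mice. Its probe set 1425519_a_at read 2822, 3039.6 and 2388 in PPARα-null fasted mice, against 4121, 4080.2 and 4279 in PPARα-null fed mice. It read 2659.8, 2691 and 2725 in wild-type fasted mice, against 4425, 4909.8 and 4213 in wild-type fed mice. No fasted array reached a fed one. Relative to the shift the change in wild-type mice was −0.43 (SE 0.096, adjusted p = 0.00753), a fold of 1.35 and just past the threshold, and without wild-type fed replicate 2 it was −0.37, under the fold of 1.3. In PPARα-null mice it was −0.29 (SE 0.096, adjusted p = 0.0216), under the fold of 1.3 and with an unadjusted limma p of 0.0104. As deposited it was −0.60 in PPARα-null mice and −0.74 in wild-type mice, which passed in both. The shift itself depended on the level, with a median of −0.22 among probe sets of 2000 to 5000 and −0.37 among those of 100 to 200, and removing it as a curve of intensity left the counts of class II probe sets at 8 in PPARα-null mice and 9 in wild-type mice.

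Ciita, the transactivator, was under the level of 20 on both of its probe sets in every group and was therefore not counted. On 1421210_at it read 5.86, 4.39 and 4.33 in PPARα-null fasted mice, against 13.6, 9.56 and 9.37 in PPARα-null fed mice. It read 7.03, 7.52 and 5.45 in wild-type fasted mice, against 14.7, 13.04 and 10.6 in wild-type fed mice. The fasted arrays lay below the fed ones in both genotypes, with changes of −0.84 (SE 0.18) in PPARα-null mice and −0.62 (SE 0.18) in wild-type mice. On 1421211_a_at the groups averaged 5.55 ± 0.499 in PPARα-null fasted mice and 6.40 ± 0.678 in wild-type fasted mice, against 7.90 ± 0.131 in PPARα-null fed mice and 8.87 ± 0.483 in wild-type fed mice (SD, n = 3). Its changes were −0.20 and, in wild-type mice, −0.16. At such intensities the background correction bears on the value, and with a pseudocount of 16 added before the logarithm the changes of 1421210_at shrank to −0.10 in PPARα-null and −0.09 in wild-type mice and those of 1421211_a_at became 0.11 in both genotypes.

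**Figure D2:**
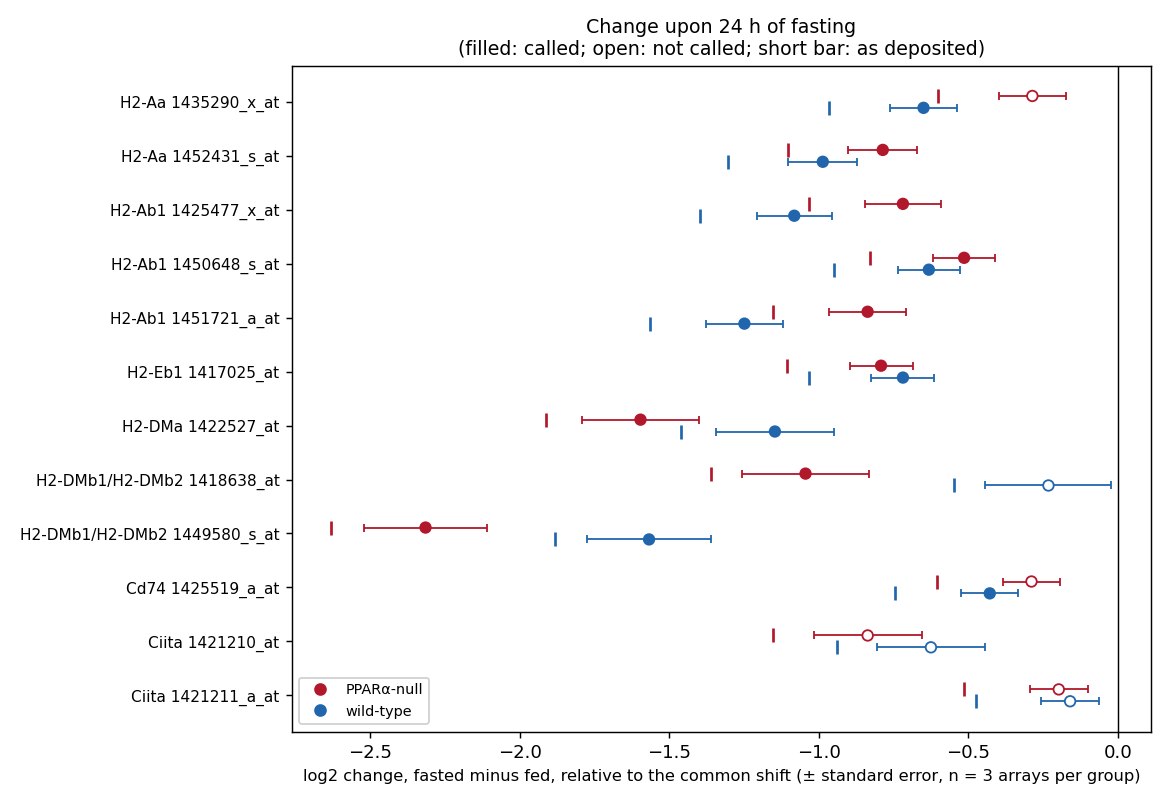
Log2 change upon 24 hours of fasting (horizontal axis, fasted minus fed relative to the common shift, ± standard error, n = 3 arrays per group) of the 12 class II probe sets (vertical axis) in PPARα-null (red) and wild-type (blue) mice. Filled points passed the threshold, and short bars give the change as deposited, lower by 0.32. The H2-DMb1/H2-DMb2 probe set 1449580_s_at lies furthest to the left in both genotypes, at −2.31 and, in wild-type mice, −1.57.

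Replicates of PPARα-null fasted mice deviated alike on the class II probe sets. Among PPARα-null fasted mice replicate 2 was the highest and replicate 3 the lowest on each of the 10 probe sets over the level of 20. Replicate 2 also had the pancreas sum of 600, against 22809 and 23701 in PPARα-null fasted replicates 1 and 3. The part of pancreas RNA in these deviations was not tested. The summed intensity of H2-Aa, H2-Ab1, H2-Eb1, H2-DMa and Cd74, with 1 probe set per gene, was 6421, 7068 and 5349 in these 3 mice and 5928, 5889 and 6015 in wild-type fasted mice. It was 10789, 10246 and 11422 in PPARα-null fed mice and 11717, 13105 and 10956 in wild-type fed mice. The wild-type fasted arrays thus lay closer together than those of the other groups. With replicate 2 as the only PPARα-null fasted array, 6 of 10 probe sets passed in PPARα-null mice, all of them downward, and the 1449580_s_at change was −1.98. This fit was added after the data had been seen and assumes that the lone array varies like the other groups. H2-DMb1/H2-DMb2 1418638_at (−0.67) and H2-Ab1 1450648_s_at (−0.38) no longer passed in it.

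Between the genotypes, class II probe sets of fasted mice differed no more often than probe sets of the whole array. Of the 10 probe sets, 3 were lower in PPARα-null fasted than in wild-type fasted mice and none was higher, where 16.8% of the 9217 probe sets tested were lower and 30.8% differed in either direction. The 3 were H2-DMa, by −0.66 (SE 0.20, adjusted p = 0.0170), and both probe sets of H2-DMb1/H2-DMb2, by −0.87 (SE 0.21, adjusted p = 0.00552) on 1418638_at and −0.96 (SE 0.21, adjusted p = 0.00258) on 1449580_s_at. The arrays of both groups, listed above, did not overlap on these 3. H2-Eb1 did not overlap between the groups either, but its difference of −0.18 (SE 0.11, adjusted p = 0.197) did not pass. Arrays of PPARα-null fasted mice lay wholly below those of wild-type fasted mice on 4 of the 10 probe sets, against 26.1% of all probe sets.

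H2-Aa, H2-Ab1, H2-Eb1 and Cd74 showed no difference past the threshold between PPARα-null fasted and wild-type fasted mice. The differences were 0.17 on H2-Aa 1435290_x_at (95% interval −0.07 to 0.42), 0.003 on H2-Aa 1452431_s_at (−0.25 to 0.25), 0.27 on H2-Ab1 1451721_a_at (−0.01 to 0.55) and 0.02 on Cd74 (−0.18 to 0.23). A difference of the size found for H2-DMb1/H2-DMb2 lies outside these intervals. Ciita 1421210_at read lower in PPARα-null fasted mice by −0.46 (SE 0.18), at intensities under 20. H2-Ea, a classical chain outside the chosen genes, passed as higher in PPARα-null fasted mice (0.56, SE 0.14, adjusted p = 0.00806). Its means were near the level of 20, at 31.7 in PPARα-null fasted and 21.5 in wild-type fasted mice. Whether this difference reflects H2-Ea RNA or background signal was not tested.

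The H2-DM differences rested partly on PPARα-null fasted replicates 1 and 3. With replicate 2 alone they became −0.21 for H2-DMa, −0.49 for 1418638_at and −0.61 for 1449580_s_at, none past the threshold, while H2-Ab1 1451721_a_at passed as higher in the PPARα-null mouse (0.48, adjusted p = 0.0423). The H2-DMa call was also lost without PPARα-null fasted replicate 1 (−0.65) or replicate 3 (−0.45) and without wild-type fasted replicate 2 (−0.55). Intensities in PPARα-null fasted mice were low, at 16.8 to 30.8 for H2-DMa and 10.1 to 16.4 for 1418638_at, and with a pseudocount of 16 those of H2-DMa (−0.42) and 1418638_at (−0.44) did not pass while that of 1449580_s_at (−0.76) did.

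Fed mice of the 2 genotypes did not differ past the threshold on any of the 10 class II probe sets, where 2.66% of all probe sets tested with limma did and 1.65% were lower in PPARα-null mice. None had an unadjusted p under 0.05 either, and adjusted p-values lay between 0.565 and 0.949. All 10 read lower in PPARα-null fed than in wild-type fed mice, with a median of −0.17 and a range of −0.22 to −0.06. Over all probe sets the median was 0.033, and 10% lay below −0.20. The 10 probe sets share the same arrays, and several belong to the same gene, so they are not 10 separate observations. For 1449580_s_at, the probe set with the largest genotype difference after fasting, the fed difference was −0.21 (95% interval −0.66 to 0.23), and for Cd74 it was −0.12 (−0.32 to 0.09). On each of the 12 probe sets the deposited means were highest in wild-type fed mice, followed by PPARα-null fed mice and then by both fasted groups. The order of the fasted groups varied, with PPARα-null below wild-type mice for H2-Eb1, the H2-DM genes and Ciita and above them for H2-Aa, H2-Ab1 and Cd74.

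Whether the response to fasting itself differed between the genotypes was tested as the change in PPARα-null minus the change in wild-type mice. None of the 10 probe sets passed, where 22.4% of all probe sets did, and 4 had an unadjusted p under 0.05. Those 4 pointed in both directions. The response was more negative in PPARα-null mice on 1418638_at (−0.81, SE 0.30, adjusted p = 0.0663) and 1449580_s_at (−0.75, SE 0.29, adjusted p = 0.0817) of H2-DMb1/H2-DMb2. It was less negative on H2-Aa 1435290_x_at (0.36, SE 0.16, adjusted p = 0.117) and H2-Ab1 1451721_a_at (0.41, SE 0.18, adjusted p = 0.124). Single arrays decided these calls. Without PPARα-null fasted replicate 2 both H2-DMb1/H2-DMb2 probe sets passed (−1.004 and −0.92), without replicate 3 H2-Aa 1435290_x_at and H2-Ab1 1451721_a_at passed (0.48 and 0.55), and without PPARα-null fed replicate 2 only 1418638_at passed (−0.97).

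**Figure D3:**
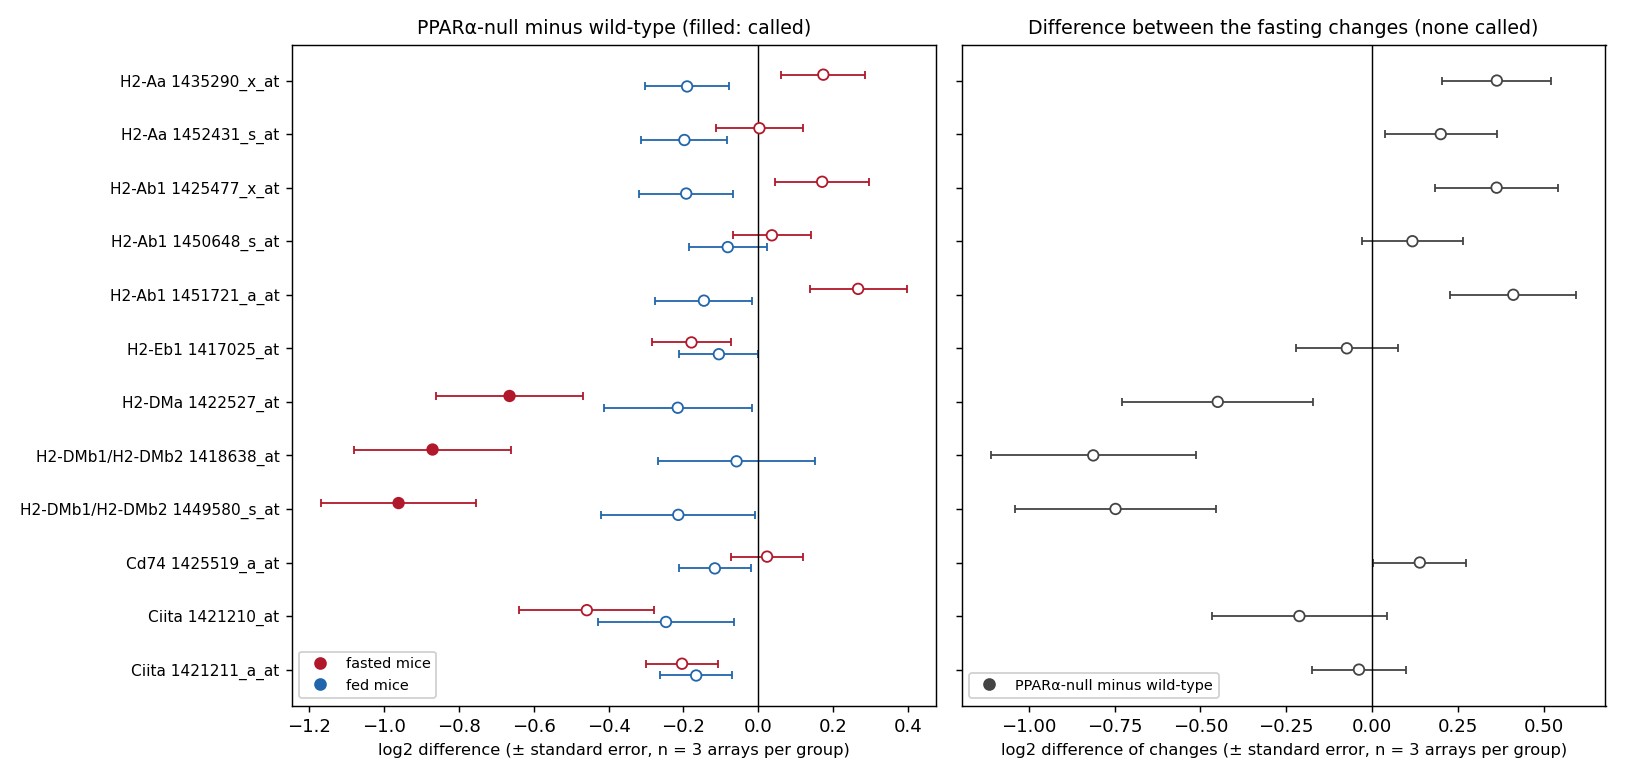
Left, log2 difference between PPARα-null and wild-type mice (horizontal axis, ± standard error, n = 3 arrays per group) for the 12 class II probe sets (vertical axis) in fasted (red) and fed (blue) mice. Right, the difference between the fasting changes of the genotypes. Only the 3 H2-DM points of fasted mice are filled, at −0.66, −0.87 and −0.96, and all fed differences lie between −0.25 and −0.06.

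Other genes of the class II pathway were read against the same shares of downregulated probe sets, 23.6% in PPARα-null and 7.43% in wild-type mice. Of 8 genes for peptide supply, the endosomal proteases and their helpers, 1 rose and none fell in each genotype, and as deposited 1 fell in PPARα-null and 2 in wild-type mice. That gene was Lgmn, the asparaginyl endopeptidase, with 189 ± 37.1 in PPARα-null fasted mice, against 110 ± 20.4 in PPARα-null fed mice, and 228 ± 78.3 in wild-type fasted mice, against 112 ± 2.18 in wild-type fed mice (SD, n = 3). Its changes were 1.10 in PPARα-null and 1.28 in wild-type mice. Ctss, the protease that removes the last part of the invariant chain in antigen-presenting cells, changed by −0.05 (adjusted p = 0.639) in PPARα-null and by 0.07 (adjusted p = 0.564) in wild-type mice, and Ctsb by −0.03 and −0.06.

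Of 5 expressed genes for the factors that bind class II promoters, 1 rose and 2 fell in PPARα-null mice, and 1 rose in wild-type mice, where as deposited 2 fell and none rose. Nfya, a subunit of the Y box factor NF-Y, read 10.04 ± 2.21 in PPARα-null fasted mice, against 33.0 ± 7.87 in PPARα-null fed mice (SD, n = 3), and fell by 1.39. Rfxank, a subunit of the X box factor RFX, read 17.5 ± 2.90 in PPARα-null fasted mice, against 38.0 ± 1.22 in PPARα-null fed mice, and fell by 0.81. Rfxap, another subunit of RFX, rose by 0.97 in PPARα-null mice and by 0.51 in wild-type mice, the second of which did not pass as deposited (0.19). In wild-type mice the changes of Nfya (−0.40) and Rfxank (0.14) did not pass. Nfyc (0.16 in PPARα-null and −0.29 in wild-type mice) and Nfyb (0.20 and 0.03) did not pass either.

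Among 7 expressed genes around interferon gamma, 2 rose and 2 fell in PPARα-null mice, and 3 rose and none fell in wild-type mice. As deposited none rose and 2 fell in wild-type mice. Irf1, a transcription factor that interferon gamma induces and that acts on the Ciita promoter, fell by 1.54 in PPARα-null mice, where it read 198 ± 4.11 after fasting, against 723 ± 109 when fed. In wild-type mice it read 461 ± 29.1 after fasting, against 684 ± 83.0 when fed, and its change of −0.25 (adjusted p = 0.145) did not pass. Irf8, a factor of myeloid and B cells, fell by 1.33 in PPARα-null mice and changed by −0.41 in wild-type mice. Ifngr1, the ligand-binding chain of the interferon gamma receptor, rose by 1.22 in PPARα-null and by 0.64 in wild-type mice. The difference between the responses passed for Irf1 (−1.29, adjusted p = 2.28e-04) and Irf8 (−0.92, adjusted p = 0.0203). It passed in the other direction for Ifngr1 (0.58, adjusted p = 0.0252). Of all probe sets 22.4% passed in this comparison, and no probe set of the 7 class II genes did. Il18 (1.001) and Jak2 (0.40) were the other genes that rose in wild-type mice relative to the shift, by 0.69 and 0.09 as deposited. Ifngr2 (0.36) and Jak1 (0.30) did not pass in PPARα-null mice.

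Class I presentation was set beside class II. Of its 13 expressed genes, 6 fell and none rose in PPARα-null mice, and 1 fell and none rose in wild-type mice, or 9 and 6 as deposited. The largest falls in PPARα-null mice were those of the immunoproteasome subunits that interferon gamma induces, Psmb9 (2.01), Psmb8 (1.29) and Psmb10 (0.92). Psmb8 was the one that fell in wild-type mice, by 0.52. H2-D1, a class I heavy chain, changed by 0.07 in PPARα-null and 0.03 in wild-type mice, and B2m, the light chain, by 0.08 and 0.06, none of which passed. The median over the 13 genes was −0.48 in PPARα-null and −0.10 in wild-type mice, where that of the class II genes, on 1 probe set per gene, was −0.81 and −0.93.

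**Figure D4:**
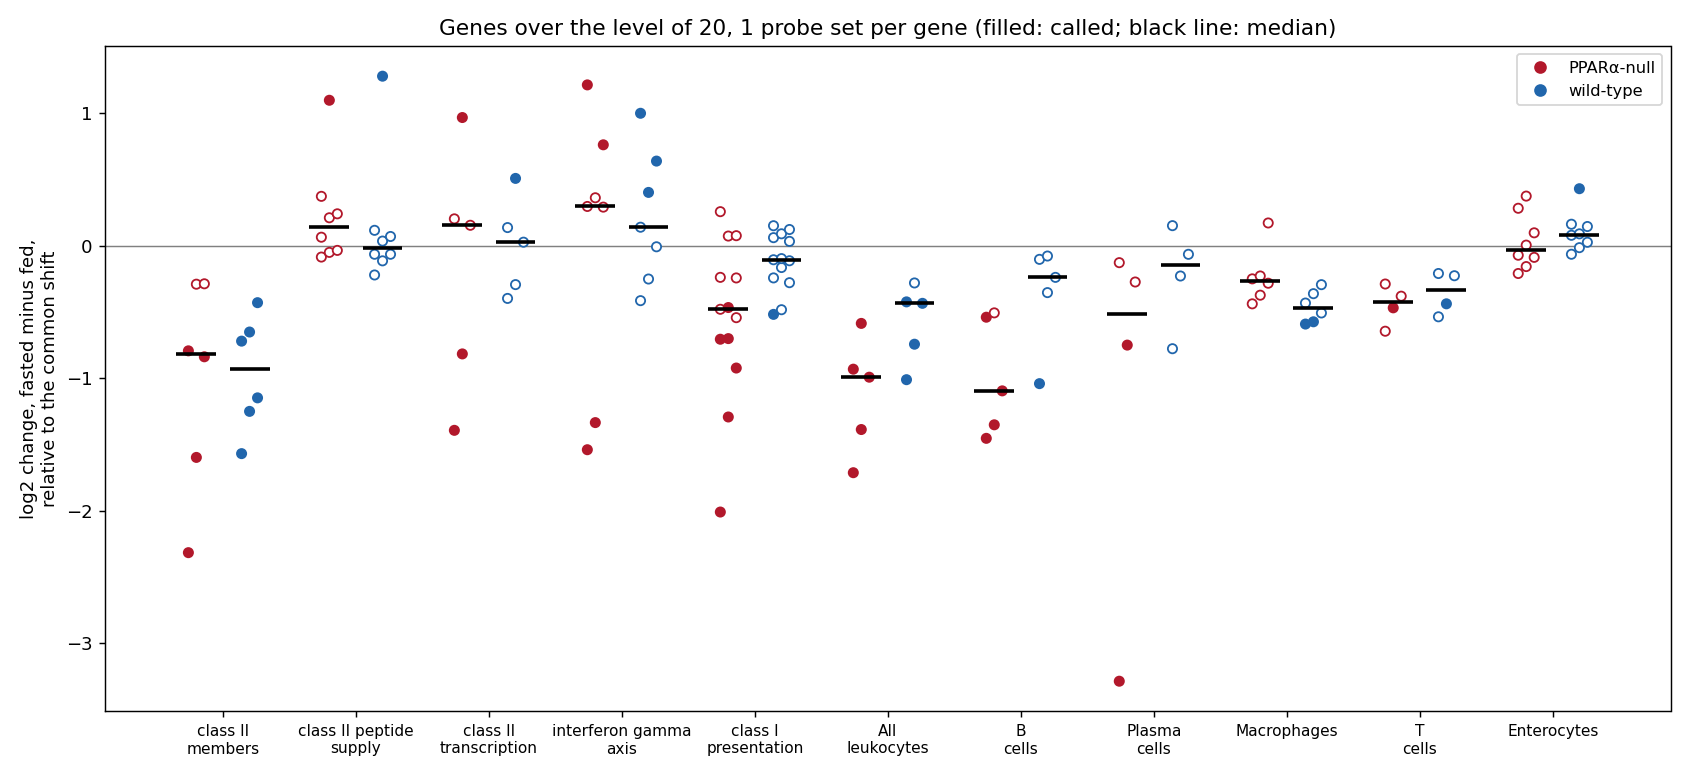
Log2 change upon fasting (vertical axis, relative to the common shift) of genes over the level of 20, with 1 probe set per gene, in lists of class II genes, their pathway and cell type markers (horizontal axis) for PPARα-null (red) and wild-type (blue) mice. Filled points passed the threshold and black lines are medians. On these probe sets 4 of 6 class II genes fell in PPARα-null and 6 of 6 in wild-type mice, while the lists for peptide supply have medians of 0.14 and, in wild-type mice, −0.01.

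Markers of leukocytes, not all of which carry class II, moved with it in part. The 5 pan-leukocyte markers (Ptprc, Coro1a, Lcp1, Laptm5 and Cd53) summed to 675 to 709 in PPARα-null fasted mice and 1179 to 1261 in wild-type fasted mice, against 1676 to 1973 in PPARα-null fed mice and 1973 to 2425 in wild-type fed mice. All 5 fell upon fasting in PPARα-null mice, where 23.6% of all probe sets did, and 4 of 5 fell in wild-type mice, where 7.43% did. These shares also stand behind the counts of B cell, macrophage, T cell and plasma cell markers. All 5 leukocyte markers were lower in PPARα-null fasted than in wild-type fasted mice, against 16.8% of all probe sets, as were the H2-DM genes. H2-Aa, H2-Ab1, H2-Eb1 and Cd74 did not pass in that comparison. In fed mice 1 of the 5 leukocyte markers was lower in PPARα-null than in wild-type mice, against 1.65% of all probe sets. The median difference of the 5 in fed mice was −0.25, where that of all probe sets was 0.033. Of the B cell markers on the array, 5 of 11 were over the level of 20 in wild-type fed mice, and 4 of these fell in PPARα-null and 1, Cd79a, in wild-type mice. Their sum over 11 genes was 127 to 185 in PPARα-null fasted mice and 253 to 257 in wild-type fasted mice, against 371 to 415 in PPARα-null fed mice and 392 to 453 in wild-type fed mice. Of the macrophage markers 6 of 11 were over the level, of which none passed in PPARα-null mice and 2, C1qa and Aif1, fell in wild-type mice, while as deposited 4 fell in each genotype. The macrophage sum was 1088 to 1121 in PPARα-null fasted mice and 1174 to 1266 in wild-type fasted mice, against 1694 to 1782 in PPARα-null fed mice and 1867 to 1945 in wild-type fed mice. Of 10 dendritic cell markers, 9 were under 20 on every array. Of the T cell markers 4 of 9 were over the level, and 1, Lat, fell in each genotype. The T cell sum was 113 to 120 in PPARα-null fasted and 157 to 183 in PPARα-null fed mice. In wild-type mice it was 140 to 156 after fasting and 202 to 249 when fed. Of the plasma cell markers 4 of 5 were over the level, of which 2 fell in PPARα-null and none in wild-type mice. As deposited, 5 leukocyte, 5 B cell, 3 T cell and 4 plasma cell markers fell in PPARα-null mice, against 43.4% of all probe sets. In wild-type mice 5, 2, 3 and 1 fell as deposited, in the same order of lists, against 31.7% of all probe sets. The plasma cell sum was 3007 to 3599 in PPARα-null fasted and 5708 to 6350 in PPARα-null fed mice. In wild-type mice it was 4478 to 5323 after fasting and 6076 to 6734 when fed. The part of all these cells in the class II changes was not tested.

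Enterocyte markers, which check the labelled tissue, were high in all groups. Their sum over 8 genes was 44258 to 46809 in PPARα-null fasted mice and 47586 to 50002 in wild-type fasted mice, against 51540 to 51840 in PPARα-null fed mice and 53526 to 55510 in wild-type fed mice. Relative to the shift none of the 8 passed in PPARα-null mice and 1, Fabp1, rose in wild-type mice, while as deposited 4 fell in PPARα-null mice and none passed in wild-type mice. The part of pancreas RNA in the class II changes was not tested.

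**Figure D5:**
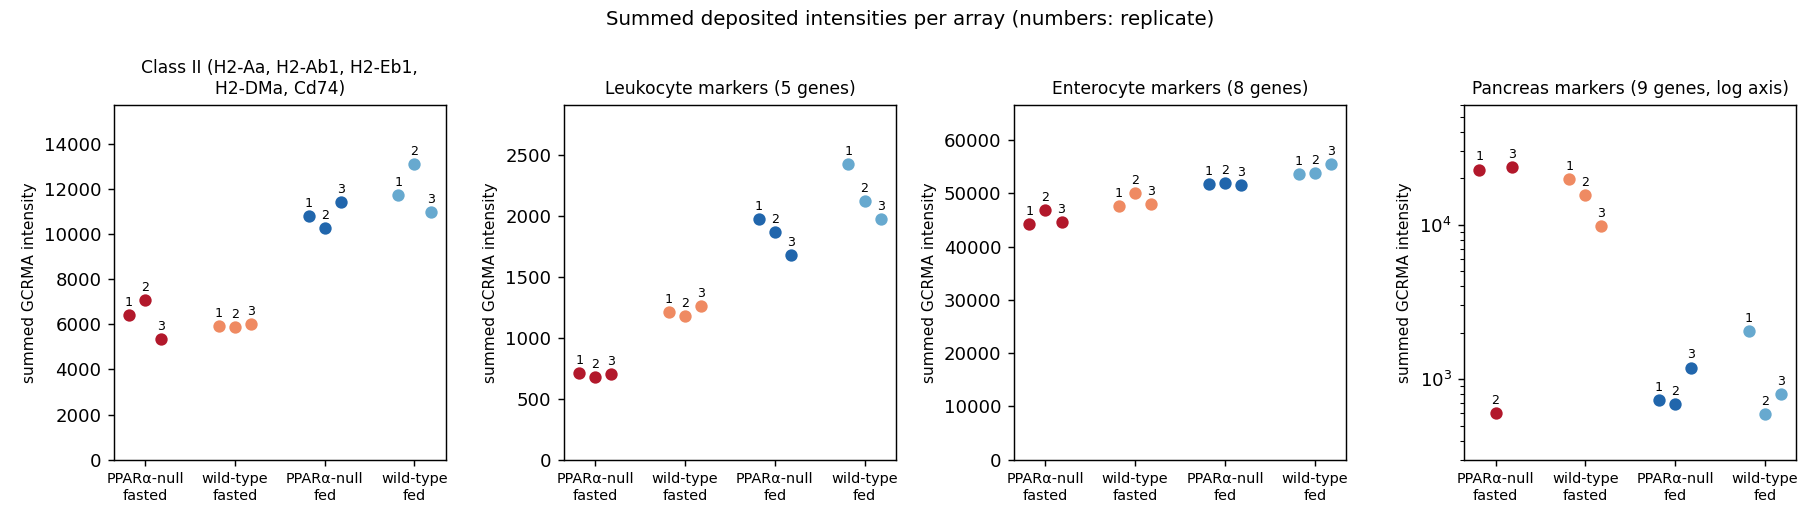
Summed deposited intensity per array (vertical axes, the last on a log scale) of class II genes, leukocyte, enterocyte and exocrine pancreas markers in the 4 groups (horizontal axes), with the replicate number at each point. The class II sums of fasted arrays, 5349 to 7068, lie below those of fed arrays, 10246 to 13105, and PPARα-null fasted replicate 2 has a pancreas sum of 600.

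The genes whose pattern was most like that of the class II genes were found by correlation over the 12 arrays with the mean standardised log2 level of 5 class II genes, among 6102 other expressed genes. The 5 were H2-Aa, H2-Ab1, H2-Eb1, H2-DMa and Cd74, so that H2-DMb1/H2-DMb2 was not part of the pattern. The 10 most alike were Fyb, Cfl1, Lactb, Mrps36, Sh3bgrl3, Slpi, Mcm4, Atg4d, Orc4 and Atg3, with r between 0.932 and 0.956. They were among 34 genes with r over 0.9. The arrays form a fed and a fasted cluster, which share a normalisation set each, and r over all of them contains the difference between these clusters. Within the 6 fed arrays r was 0.704 for Fyb, an adaptor protein of blood cells, 0.715 for Cfl1, the actin-severing cofilin, and 0.845 for Sh3bgrl3, and within the 6 fasted arrays it was 0.917, 0.733 and 0.668 in the same order of genes. For Orc4 it was −0.169 within the fed and 0.684 within the fasted arrays, and for Slpi 0.708 and 0.0569. These values describe likeness over few arrays and are given without a test.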

How the data were processed

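Values are the GCRMA (2.20 in the labels) intensity values deposited by the authors, linear, one per probe set and array, made by background correction, quantile normalization and summary per probe set. They were taken to log2 in R 4.3.3 and fitted with limma 3.58.1 (lmFit, eBayes), 1 mean per group over 12 arrays and all 22690 probe sets, after the common constant of −0.32 had been taken off the fasted arrays. The thresholds (unadjusted p under 0.01, fold over 1.3, level over 20 in wild-type fed mice) are those of the study's methods. Genotype contrasts took a level over 20 in either group and the difference between responses in any group. Probe sets with 1 symbol numbered 20393, with several 691 and with none 1606. With 3 arrays per group, their number limits the precision. The p-values set a difference against 1 within-group spread that all 4 groups share and that limma moderates over all probe sets. No pair of arrays held identical values.

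All class II probe sets were named. From each other list, up to 3 genes that passed with the largest change and up to 2 of the most abundant that did not were named, with the brightest probe set per gene. The members and lists were chosen with earlier results of these data known. The script was tested on simulated data. Alternatives were other filters, pseudocounts, scalings and variances, only the groups compared, replicate number as a block, an adjusted p threshold and each array left out. Shift removal as a curve and leaving out PPARα-null fasted replicates 1 and 3 together were added after seeing the data.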

Additional observations from a re-analysis of the deposited data

How the results depend on the processing

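The values of single probe sets recomputed under the alternatives included all changes upon fasting. Genotype differences and differences between responses were included only where their main unadjusted limma p was under 0.05. No genotype difference of fed mice met this, nor did that of H2-Ab1 1451721_a_at in fasted mice. Of the 764 values so chosen, 736 kept their direction and side of the threshold, 12 lost and 14 gained the call, and 2 reversed. The 2 were Ciita 1421211_a_at with a pseudocount of 16, at 0.11 in PPARα-null and 0.11 in wild-type mice. Of 576 changes upon fasting, 574 were negative. The count of class II probe sets downregulated by fasting lay between 6 and 10 in PPARα-null mice and between 8 and 10 in wild-type mice. Leaving out 1 array gave 8 to 9 and 8 to 9. As deposited, 10 passed in PPARα-null mice, where 43.4% of all probe sets were lower, and 9 in wild-type mice, where 31.7% were. The 3 genotype differences of fasted mice became 1 with a pseudocount of 16 and 1, another probe set, without PPARα-null fasted replicates 1 and 3 together. They were 2 to 3 with 1 array left out. Differences between the responses numbered 0 to 2 with 1 array left out and 2 without replicates 1 and 3 together, which left H2-Aa 1435290_x_at (0.59) and H2-Ab1 1451721_a_at (0.63). With the replicate number as a block the counts were 8 and 9 for fasting in PPARα-null and wild-type mice, 3 and 0 for genotype in fasted and fed mice and 0 for the difference between responses. Deviations of same-numbered arrays correlated between −0.149 and 0.218, over 0.1 in 5 of 18 pairs. With so few arrays per group this cannot decide whether the numbers pair the samples. Precision at dim probe sets, Ciita above all, is limited by signal near background.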
